A study of Mus musculus with 32 samples.

Results

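The 8 libraries described here were pulldowns from primary mouse cortical neurons expressing Pan-TurboID, a biotin ligase without a localization signal, so that proteins were labelled across the whole neuron. They were chosen by their titles, 4 from depolarized (dep) and 4 from resting neurons, paired by the replicate number in the title, out of 32 libraries in the series. Dep cultures were silenced with tetrodotoxin and DL-AP5 for 2 h, held in 55 mM KCl for 1 h and left to recover for 30 min, so the agents and the recovery cannot be told apart from KCl itself. The labels give these steps under depolarization and do not say whether resting cultures were silenced. Both groups received cycloheximide for 2 min and biotin for 30 min before UV pulses of 400 and 200 mJ/cm2. The ligase was expressed from a doxycycline-inducible lentivirus, and the input was 15% of each lysate. The other libraries were 8 inputs of the Pan cultures and 16 libraries from neurons expressing TurboID-PSD95, which is targeted to the postsynaptic density of dendrites. Neuronal markers were not checked, because the files identify transcripts by UCSC identifiers that matched 0 entries of the gene tables used here. For the same reason transcripts are given by identifier and length, with no gene name, function or sequence.

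Raised extracellular potassium depolarizes neurons, opens voltage-gated calcium channels and starts calcium-dependent signalling to the nucleus. Within about an hour this signalling induces immediate early genes and then other activity-regulated genes. In proximity labelling with crosslinking, biotin marks the proteins near the ligase, UV light joins RNA to proteins in direct contact, and streptavidin recovers the RNA bound to marked proteins. The level of a transcript in a pulldown therefore depends on how much of it the cell holds and on how much of that is bound to labelled protein, and the input measures the first of these.

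Dep pulldowns held fewer reads than resting ones in each of the 4 pairs, with 10.1, 7.03, 10.3 and 15.4 M expected counts in dep replicates 1 to 4, against 13.1, 9.30, 13.1 and 19.3 M in resting ones (exact two-sided sign-flip p = 0.125, the smallest that 4 pairs allow). A single transcript, uc009sgd.1 (3881 nt), took 4.97%, 20.5%, 48.3% and 6.58% of the reads of dep pulldowns, against 3.50%, 2.08%, 59.8% and 6.90% of resting ones. Replicate 3 was therefore shallow for all other transcripts, with 4.93 M reads outside the 3 most abundant transcripts in dep and 4.59 M in resting pulldowns. The dep pulldown of replicate 2 was nearly as shallow, at 5.46 M, against 9.05 M in its resting partner. The mean fragment length that salmon used was 148.2, 152.2, 158.0 and 140.5 nt in dep pulldowns, against 164.8, 152.3, 154.1 and 160.8 nt in resting ones. It was shorter in dep pulldowns by over 15 nt in replicates 1 and 4 and nearly equal in replicates 2 and 3. Free-text descriptions of both Pan pulldowns of replicate 2 name the opposite state. The titles were kept, and the values under the descriptions are given where they change a result.

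**Figure D1:**
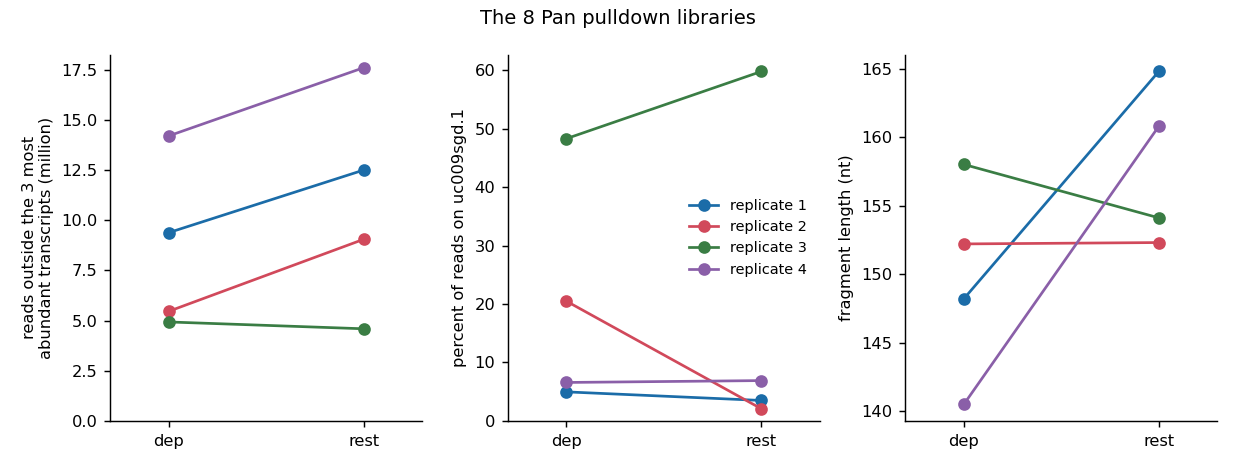
Reads left for all but the 3 most abundant transcripts, in M (left), percent of reads assigned to uc009sgd.1 (middle) and mean fragment length in nt (right, axis not from 0) for the 8 Pan pulldowns, dep left of rest. Points are libraries and lines join the same replicate number. Replicate 3 stands apart in the middle panel, at 48.3% in dep and 59.8% in resting neurons, and the fragment lengths of replicates 1 and 4 lie lower in dep.

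The central question was which RNAs bound to labelled proteins changed in amount with depolarization. Of 32553 transcripts tested in the Pan pulldowns, 2018 changed at an adjusted p of 0.05 (6.20%; limma with quality weights and Benjamini-Hochberg adjustment). Of these, 1075 rose (3.30%) and 943 fell (2.90%) in dep relative to resting neurons. In bulk libraries, fewer cells containing a transcript cannot be told apart from less of it per cell. The p-values measure the spread between replicates within a group, with replicate number in the model. This spread was estimated over all pulldowns of the series, those with TurboID-PSD95 included, which were fitted together. With the 8 Pan pulldowns alone, 684 transcripts were called (347 rose, 337 fell). The number of calls also depended on the test, with 141 by edgeR (71 rose, 70 fell) and 2489 by DESeq2 (1403 rose, 1086 fell). It was 963 after a correction for transcript length (608 rose, 355 fell) and 1008 without the replicate number in the model.

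Among called transcripts that moved 1 way in all 4 pairs and reached a mean log2 CPM (counts scaled to library size) of 4, the largest increase was that of uc008suf.1 (4305 nt). It had 73.1, 65.7, 54.6 and 50.0 CPM in dep pulldowns, against 4.01, 7.34, 6.42 and 7.68 CPM in resting ones. Every dep library lay far above every resting one. The log2 change was 3.26 ± 0.29 (SE, limma adjusted p = 0.000202), and its expected counts were whole numbers in every library, so no estimated fraction of a read was assigned to it. The second, uc009cyn.2 (6009 nt), had 43.8, 44.5, 31.9 and 60.2 CPM in dep pulldowns, against 7.78, 9.88, 1.43 and 5.21 CPM in resting ones. Its groups did not overlap either, although its replicates differed more than those of uc008suf.1, and the log2 change was 3.05 ± 0.32 (SE, limma adjusted p = 0.000451).

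Among the transcripts that fell, uc007kkj.1 (3909 nt) was the steadier of the pair named here. It had 11.6, 7.49, 9.18 and 7.03 CPM in dep pulldowns, against 65.5, 67.5, 46.8 and 43.9 CPM in resting ones. All dep libraries lay below all resting ones, and the log2 change was -2.55 ± 0.27 (SE, limma adjusted p = 0.000472). The other, uc008gzh.2 (6620 nt), had 0, 36.0, 13.1 and 4.56 CPM in dep pulldowns, against 22.4, 67.2, 80.9 and 53.7 CPM in resting ones. It was lower in dep in each pair, but the groups overlapped, since dep replicate 2 lay above resting replicate 1. Its fitted log2 change of -3.43 ± 0.86 (SE, limma adjusted p = 0.0348) rests partly on a library at 0, and the call was lost in 9 of 16 alternatives, with adjusted p-values up to 0.36. The call of uc008suf.1 was lost only under the states named in the descriptions (adjusted p = 0.0991), and those of uc009cyn.2 and uc007kkj.1 there and without replicate 1, with adjusted p-values between 0.079 and 0.102.

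**Figure D2:**
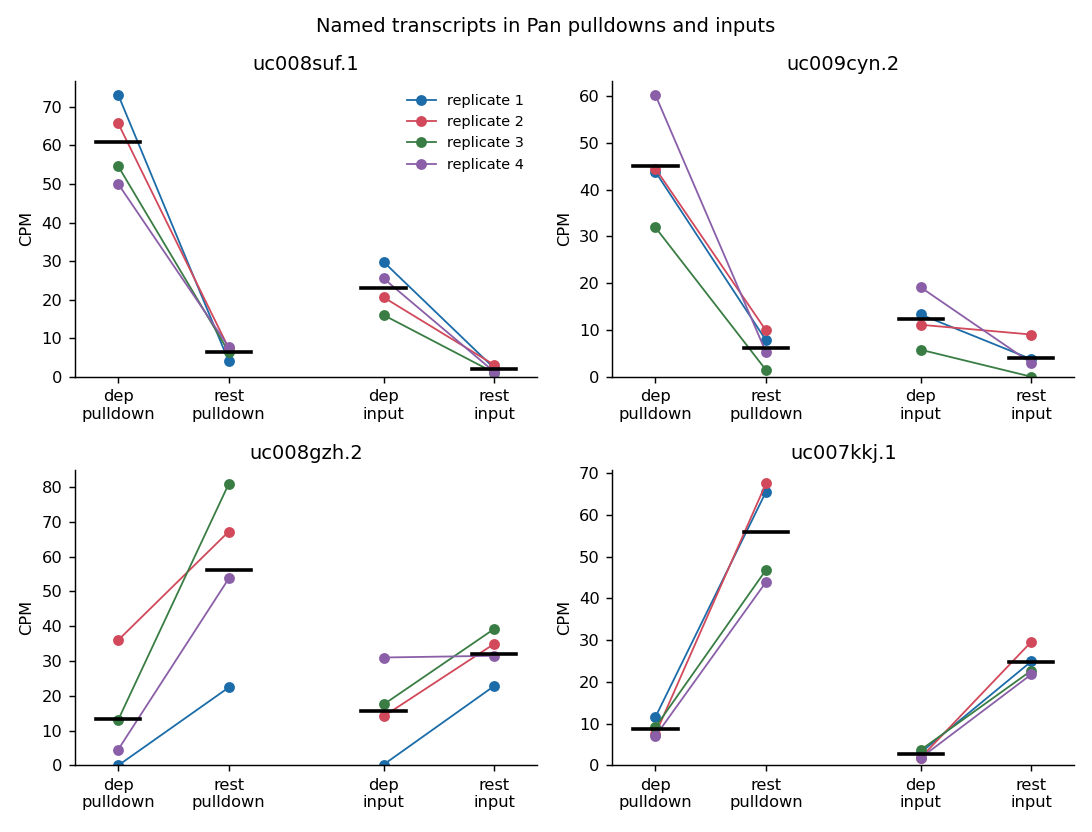
CPM on linear axes for the 4 named transcripts of the Pan pulldown comparison, in pulldowns (left pair of columns) and inputs (right pair), dep left of rest. Points are libraries, lines join replicates and black bars are means of 4 libraries. In the pulldowns, uc008suf.1 lies at 50.0 to 73.1 CPM in dep and at most 7.68 CPM in resting neurons, while the groups of uc008gzh.2 overlap.

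Pooled over all levels, the called increases were larger than the called decreases. They lay at lower levels, with a median of the mean log2 CPM of 3.18 for rising and 5.55 for falling transcripts. Within classes of level this order mostly did not hold. The medians were 4.65 and -5.16 below a mean log2 CPM of 0, 0.779 and -0.839 between 4 and 6, and 0.44 and -0.452 at 8 or more. Only between 2 and 4 was the rising median the larger in size, at 1.53 against -1.33. The 1075 rising transcripts had a median log2 change of 1.60, with an interquartile range of 0.706 to 3.87, and 687 of them changed by at least 1 on the log2 scale. The 943 falling transcripts had a median of -0.79, with an interquartile range of -1.24 to -0.561, and 331 of them changed by at least 1. The median over all tested transcripts was -0.07. All 4 pairs moved in the called direction for 886 rising and 787 falling transcripts, and 21.2% of all tested transcripts moved 1 way in all 4 pairs. The CPM values of the groups did not overlap for 632 rising and 529 falling transcripts. Over all tested transcripts, 3.99% lay without overlap higher in dep and 4.30% lower, 8.29% together. Some were listed at 0 throughout one state, with 88 rising transcripts at 0 in all resting pulldowns and 59 falling transcripts at 0 in all dep pulldowns. Taking these at a bound of 3 counts over the group left both medians as they were.

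The number of calls dropped most without replicate 1 or replicate 4. Without replicate 1 there were 13 calls, without replicate 2 there were 773, without replicate 3 there were 1130 and without replicate 4 there were 276. The transcripts called from the other 3 replicates can be looked up in the one left out, which had no part in choosing them. All 13 transcripts called without replicate 1 moved the same way in replicate 1. In replicate 2 this held for 635 of 770 (82.5%), in replicate 3 for 974 of 1118 (87.1%) and in replicate 4 for 260 of 273 (95.2%), counting those also tested with all 4 replicates. Over all transcripts with a direction in those fits, the shares were 60.2%, 50.9%, 55.2% and 61.3% in replicates 1 to 4. Replicate 2 thus moved with the states in its titles for most called transcripts, and under the states of its descriptions 1 transcript was called.

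Which transcripts could be called depended on their level. Among the 250 transcripts with a mean log2 CPM of 8 or more, 40% were called, and 30.8% fell while 9.20% rose. Between 6 and 8, 27.7% of 1695 were called, and between 4 and 6, 11.3% of 5270. At low levels the calls leaned the other way, with 276 that rose and 77 that fell below a mean log2 CPM of 0, and 155 that rose and 29 that fell between 0 and 2. The median standard error was 0.0872 in the highest class and 1.41 in the lowest (below 0), and no transcript in the lowest class was called with a log2 change under 2.22. Small changes could thus be detected only in abundant transcripts, and the number of calls in a class does not measure how many of its transcripts changed.

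**Figure D3:**
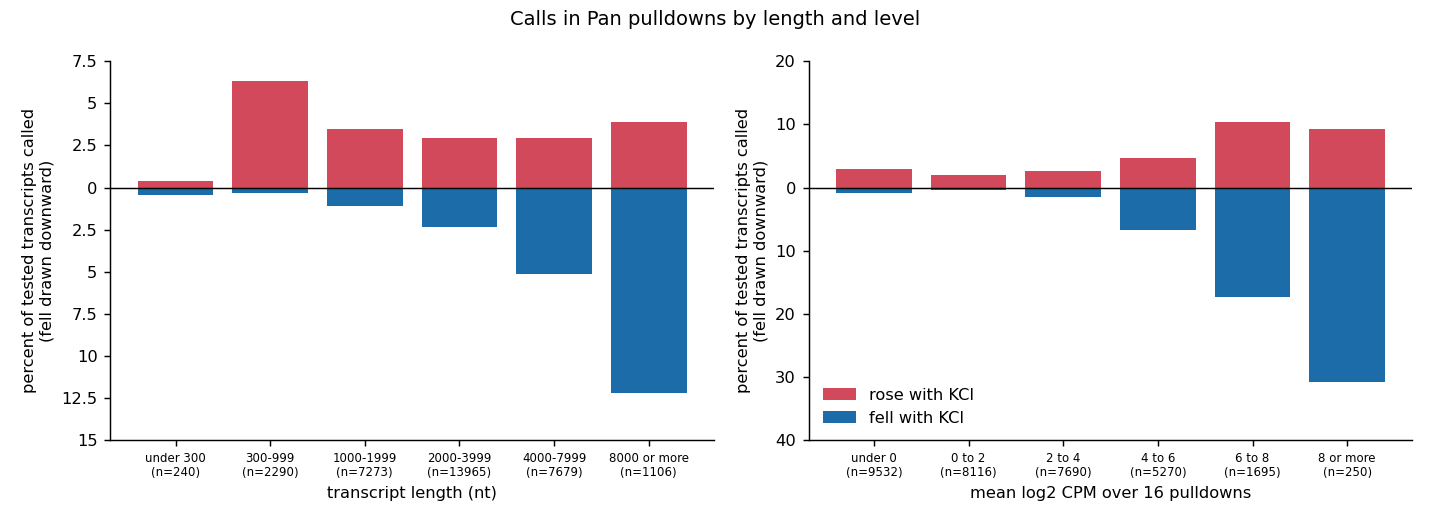
Percent of tested transcripts that rose (red, upward) or fell (blue, drawn downward) in dep relative to resting Pan pulldowns, by transcript length in nt (left) and by mean log2 CPM (right), with the number tested in each class. Falling calls reach 12.2% of transcripts of 8000 nt or more and 30.8% of those with a mean log2 CPM of 8 or more.

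Rising transcripts were shorter than falling ones. Their median length was 2575 nt, against 4320 nt for falling transcripts and 2811 nt for all tested. Between 300 and 1000 nt, 145 transcripts rose and 7 fell among 2290 tested. At 8000 nt or more, 43 rose and 135 fell among 1106. Longer transcripts collect more reads and are tested with smaller errors, so the classes were also compared at a mean log2 CPM of at least 4. There, 78 of 296 transcripts between 300 and 1000 nt rose and 3 fell, and 23 of 573 of 8000 nt or more rose and 127 fell. Below that level, 67 of 1994 transcripts between 300 and 1000 nt rose and 4 fell. Of 533 transcripts of 8000 nt or more, 20 rose and 8 fell there. The excess of falling calls among the longest transcripts was thus seen only at the higher levels. Transcripts with whole-number counts in every library gave 60 that rose and 2 that fell of 530 in the shorter class, and 6 that rose and 8 that fell of 37 in the longer one.

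The same shift was seen without calls, in a set of 9546 transcripts whose counts averaged 200 or more over the Pan pulldowns. For each replicate, the median log2 ratio of dep over rest in a length class was set against the median of the whole set. The 363 transcripts between 300 and 1000 nt stood 0.509, 0.763, 0.238 and 0.244 above it in replicates 1 to 4, a mean of 0.438 ± 0.251 (SD, n = 4, exact two-sided sign-flip p = 0.125). All 4 replicates were above 0, with replicate 2 the highest. The 709 transcripts of 8000 nt or more lay at -0.266, -0.249, -0.0636 and -0.10, a mean of -0.17 ± 0.103 (SD, n = 4, exact two-sided sign-flip p = 0.125). The classes between were ordered by length, at 0.181 ± 0.106 for 1000 to 2000 nt, 0.0125 ± 0.0174 for 2000 to 4000 nt and -0.0876 ± 0.044 for 4000 to 8000 nt (SD, n = 4). The exception was the class under 300 nt, with 20 transcripts, which lay at -0.471 ± 0.515 and above 0 in 1 of 4 replicates.

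In reads, the class between 300 and 1000 nt took 5.13%, 5.07%, 3.70% and 4.23% of the reads outside the 3 most abundant transcripts in dep pulldowns, against 3.41%, 3.35%, 3.21% and 3.51% in resting ones. The groups did not overlap. Fragment length moved with state in replicates 1 and 4, by -16.6 and -20.3 nt, but by -0.1 nt in replicate 2, where the short class stood highest. Its part in the shift with length was not tested. With the states of the descriptions, the shorter class stood at 0.0569 and the longer at -0.0452.

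**Figure D4:**
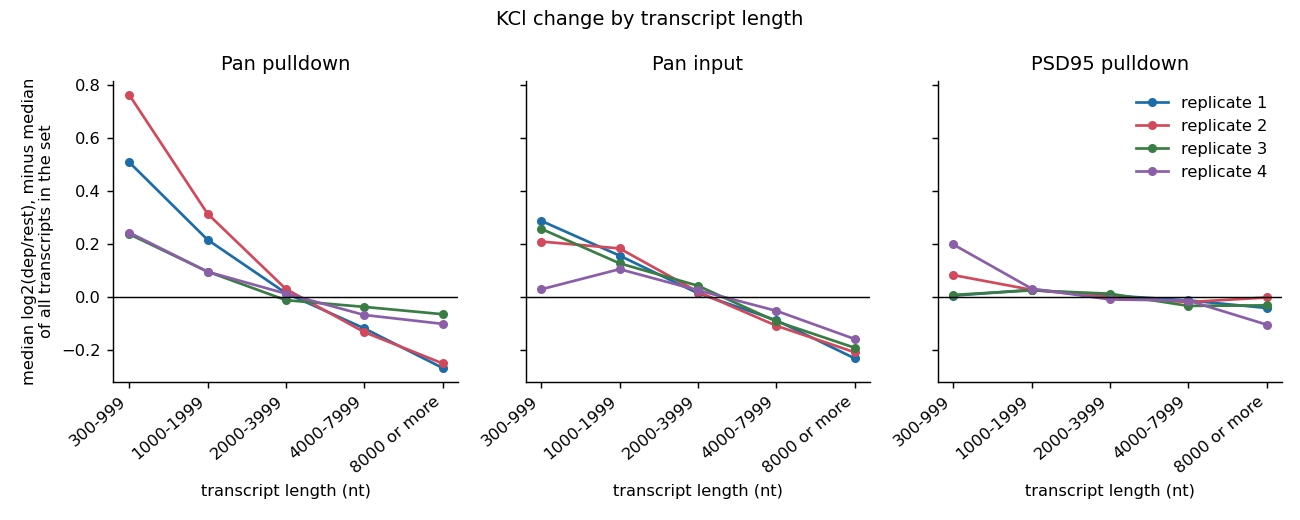
Median log2 ratio of dep over rest by transcript length class in nt, minus the median of all transcripts of the set in the same replicate, for Pan pulldowns (left), Pan inputs (middle) and PSD95 pulldowns (right). Each line is 1 replicate, and the class under 300 nt, with 20 transcripts, is left out. In the Pan pulldowns the class of 300 to 1000 nt lies between 0.238 and 0.763 and that of 8000 nt or more between -0.266 and -0.0636.

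The inputs of the same cultures served as background, since they hold the RNA before the pulldown. In them, 867 of 27887 transcripts changed (3.11%), with 583 that rose (2.09%) and 284 that fell (1.02%). Of the transcripts named above, uc008suf.1 had 29.8, 20.6, 16 and 25.5 CPM in dep inputs, against 2.21, 3.09, 1.04 and 1.29 CPM in resting inputs, and uc007kkj.1 had 3.08, 1.86, 3.72 and 1.82 CPM in dep inputs, against 24.9, 29.6, 22.7 and 21.8 CPM in resting inputs. Both changed in the inputs as well, by 3.75 ± 0.38 and -3.09 ± 0.48 on the log2 scale (SE, limma adjusted p = 0.00034 and 0.00464). uc009cyn.2 moved by 2.61 ± 0.84 and uc008gzh.2 by -1.82 ± 0.72 in the inputs, which did not pass (limma adjusted p = 0.13 and 0.218). The dep input of replicate 4 had only 0.613 M reads outside the 3 most abundant transcripts, with 84.8% of its reads on uc009sgd.1. This library nevertheless had the highest quality weight in the fit of the inputs, at 2.24. Without replicates 1 to 4 in turn, 6, 203, 88 and 293 transcripts were called in the inputs.

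Transcripts called in the pulldowns moved the same way in the inputs in most cases. Of the 1075 rising transcripts, 862 were tested in the inputs, where 297 rose (34.5%) and 0 fell, against 2.13% that rose among all transcripts tested in both. Of the 943 falling transcripts, 906 were tested in the inputs, where 170 fell (18.8%) and 1 rose, against 1.04% that fell among all. The called transcripts were not matched in level to the others. Seen from the inputs, 50.9% of rising and 59.9% of falling input transcripts were called in the same direction in the pulldowns. The median log2 change in the inputs was 0.669 for rising transcripts, above 0 in 90.6%, and -0.498 for falling transcripts, above 0 in 9.60%, against 42.1% above 0 for all. Over the 9541 transcripts of that set that could be compared, changes in pulldowns and inputs correlated with a Pearson r of 0.273 across transcripts, which are not independent and come from the same cultures.

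**Figure D5:**
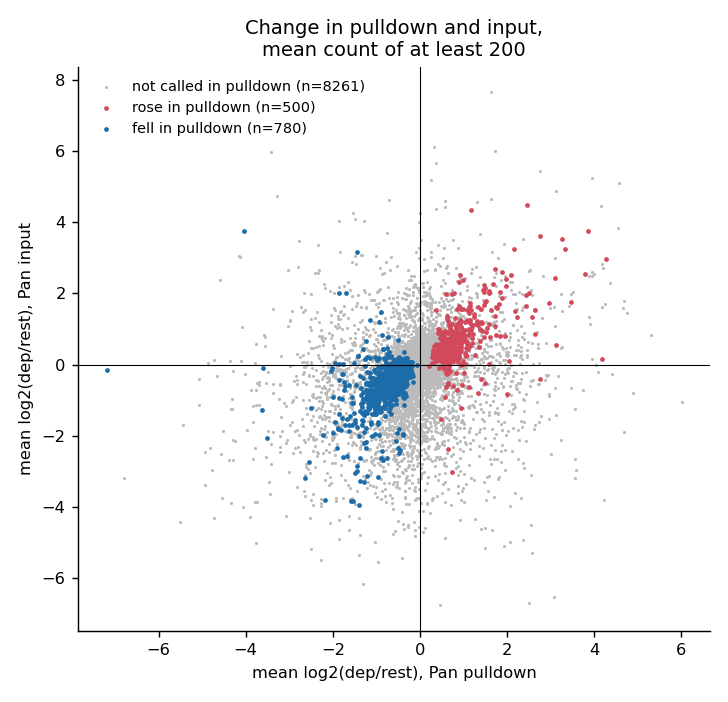
Mean log2 ratio of dep over rest over 4 replicates in Pan pulldowns (horizontal) and Pan inputs (vertical), for 9541 transcripts whose counts averaged 200 or more. Points are transcripts, coloured by their call in the pulldowns. The input value is above 0 for 467 of 500 rising and 65 of 780 falling transcripts shown.

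Whether the response in protein-bound RNA differed from that in the input was tested in 1 model of all 32 libraries. The model held group and replicate number but no term for the lysate that a pulldown and its input share. Its errors and p-values therefore do not use that pairing. Of 34696 transcripts, 5 were called (0.0144%), of which 2 had a more positive (0.00576%) and 3 a more negative change (0.00865%) in the pulldowns. At an unadjusted p under 0.05 there were 2602 of 34696, where a share of about 0.05 passes by chance alone. For this difference edgeR called 1 and DESeq2 called 610. None of the 4 transcripts named for their pulldown changes was among the 5, and the difference was -0.48 ± 0.54 for uc008suf.1 and 0.47 ± 0.59 for uc007kkj.1 on the log2 scale (SE, limma adjusted p = 0.89 and 0.904). These errors are too wide to show that the responses in the 2 fractions were equal. The class of 300 to 1000 nt also stood above the set in the inputs, by 0.196 ± 0.115 (SD, n = 4). Its shift in the pulldowns differed from that in the inputs by 0.221, 0.553, -0.0203 and 0.214 in replicates 1 to 4, with a mean of 0.242 ± 0.236 (SD, n = 4, exact two-sided sign-flip p = 0.25). For transcripts of 8000 nt or more the inputs had a shift of -0.196 ± 0.0307, and the difference was 0.0262 ± 0.0807 (SD, n = 4, exact two-sided sign-flip p = 0.625).

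Those of the 5 called transcripts with a more negative change in the pulldowns differed by under 1 on the log2 scale. uc007xok.1 (1591 nt) had 1720, 1780, 1360 and 1430 CPM in dep pulldowns, against 1380, 1050, 985 and 1460 CPM in resting pulldowns. It had 2450, 2080, 2050 and 1680 CPM in dep inputs, against 1800, 1200, 1110 and 1260 CPM in resting inputs. The log2 change was 0.15 ± 0.09 in the pulldowns, which did not pass, and 0.50 ± 0.05 in the inputs (SE, limma adjusted p = 0.353 and 0.0004). The difference was -0.43 ± 0.04 (SE, limma adjusted p = 3.57e-06), with replicate differences of -0.0938, -0.0417, -0.432 and -0.42. This call was lost in 11 of 15 alternatives, among them RLE factors, with a difference of -0.0874, and the 16 Pan libraries alone, with -0.255, and the difference was -0.0894 without replicate 4 and -0.797 without replicate 1. For uc007qbd.1 (1922 nt) the fitted difference was -0.61 ± 0.10 (SE, limma adjusted p = 0.0306). Its replicate differences were -0.2683, -0.2441, -0.5426 and -0.3645, each smaller in size than the fitted value. Its call was lost in 9 of 15 alternatives, including those without replicate 2, 3 or 4, and the difference was -0.285 without replicate 4. uc029six.1 (325 nt), at 1.26 ± 0.19 (SE, limma adjusted p = 0.00652), was above 0 in only 2 of 4 replicates and changed sign, to -0.161, with RLE factors. Its call was also lost in 11 of the other alternatives. The remaining one with a more positive change, uc012fww.1 (2255 nt, mean log2 CPM 2.60), lay outside the rule for named transcripts and was chosen after its values were seen. It differed by 4.52 ± 0.77 (SE, limma adjusted p = 0.0306) and was above 0 in 4 of 4 replicates. Its size was not followed through the alternatives. The call was lost with edgeR, which kept 0 of the 5, and after the length correction, where 0 calls were positive. It was also lost at a mean CPM of at least 5, without the replicate block and without replicate 3, where 0 transcripts were called. Without replicate 2 and with the states of the descriptions, 0 calls were positive. Without quality weights and without replicate 4, the only positive call was that of uc029six.1.

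Against pulldowns with TurboID-PSD95, 7 of 32553 transcripts responded differently (0.0215%), 4 with a more positive (0.0123%) and 3 with a more negative change (0.00922%) in the Pan pulldowns. At an unadjusted p under 0.05 there were 3849 of 32553, where a share of about 0.05 passes by chance alone. For this difference edgeR called 0 and DESeq2 called 765. uc008cal.1 (524 nt) had 238, 253, 113 and 159 CPM in dep Pan pulldowns, against 150, 111, 80.2 and 122 CPM in resting ones. With PSD95 it had 117, 126, 58.4 and 94.9 CPM in dep pulldowns, against 163, 152, 66.1 and 103 CPM in resting ones. It was thus higher in dep in each Pan pair and lower in dep in each PSD95 pair, with a difference of 0.97 ± 0.13 (SE, limma adjusted p = 0.0395). The call was lost in 10 of 15 alternatives, including each fit without 1 replicate, where the difference was 0.773 to 1.14 with limma adjusted p-values of 0.0801 to 1. uc008ewo.2 (12211 nt) had 57.9, 52.2, 85.7 and 58.7 CPM in dep Pan pulldowns, against 201, 103, 155 and 115 CPM in resting ones. The groups did not overlap, and the change was -1.28 ± 0.14 (SE, limma adjusted p = 0.000472). With PSD95 the groups overlapped, at 135, 91.7, 104 and 74.3 CPM in dep pulldowns, against 125, 89.7, 124 and 80.4 CPM in resting ones, and the difference was -1.32 ± 0.18 (SE, limma adjusted p = 0.0442). This call too was lost in 10 of 15 alternatives, including each fit without 1 replicate, and the difference was -0.815 without replicate 1.

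By length, the same contrast was of 1 sign in all 4 replicates for short but not for the longest transcripts. The class of 300 to 1000 nt stood at 0.0744 ± 0.0903 (SD, n = 4) in PSD95 pulldowns, and the Pan shift exceeded it by 0.503, 0.679, 0.229 and 0.0454 in replicates 1 to 4, a mean of 0.364 ± 0.282 (SD, n = 4, exact two-sided sign-flip p = 0.125). For transcripts of 8000 nt or more the difference was -0.225, -0.248, -0.0333 and 0.00303, a mean of -0.126 ± 0.129 (SD, n = 4, exact two-sided sign-flip p = 0.25). Transcripts that rose in the Pan pulldowns nevertheless had a median log2 change of 1.25 in the PSD95 pulldowns, above 0 in 93.2%, and those that fell had a median of -0.501, above 0 in 12.5%, against 58.8% above 0 for all tested. Both uc008suf.1 and uc009cyn.2 were higher in every dep PSD95 pulldown than in any resting one, at 49.5 to 67.9 against 2.60 to 7.47 CPM for uc008suf.1 and 33.8 to 66.4 against 5.66 to 11.7 CPM for uc009cyn.2. Their values in resting PSD95 replicate 3 rest on 3 and 6 counts. That library had the highest quality weight in the pulldown fit, at 2.3. Of those that fell, uc007kkj.1 did not overlap there (5.63 to 28.8 against 32.1 to 57.5 CPM) but uc008gzh.2 did (9.66 to 45.3 against 36.3 to 72.5 CPM). Their Pan to PSD95 differences of -1.40 ± 0.32 and -1.98 ± 0.95 did not pass (SE, limma adjusted p = 0.149 and 0.441).

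The direction of calls also differed between sets split by how the reads of a transcript could be assigned, which were not matched in level or length. The median standard error was 0.324 for transcripts with whole-number counts in every library and 0.683 for those that shared reads. Of the 3687 tested transcripts with whole-number counts in every library, 13.0% were called, 361 that rose and 117 that fell. Of the 28866 that shared reads with another transcript in some library, 5.33% were called, 714 that rose and 826 that fell. For these, reads were divided by an estimate, so a change can belong to another transcript of the same gene.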

How the data were processed

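RNA of pulldowns and inputs, about 100 ng, was depleted of ribosomal RNA and made into stranded libraries. Per the labels, the authors used Salmon with mm10. The sources used here give no version or options. The deposited values are expected counts and TPM per transcript, with length and effective length in nt. Expected counts were rounded to whole numbers. TPM was used only in an alternative (pseudocount 1). Of 51884 transcripts, 8561 were whole numbers in each library, to within 0.001.

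Transcripts were filtered with filterByExpr, scaled by TMM (edgeR 4.0.16) and tested with limma 3.58.1 (voomWithQualityWeights, Benjamini-Hochberg adjustment, threshold 0.05) in R 4.3.3, on all 16 pulldowns, all 16 inputs or all 32 libraries, with group and replicate number as terms, as in the study's methods. These state that samples of a biological replicate were processed together, which gives the pairing. Deviations from the group means correlated between same-numbered Pan pulldowns with an r of 0.0586 to 0.0718. With other numbers the mean r was -0.0365 to -0.00972. In the Pan inputs the same-numbered r was 0.0508 to 0.221, and replicate 4 correlated best with replicate 3 of the other state. DESeq2 1.42.0, edgeR and other settings were alternatives. Named transcripts were, per comparison, up to 2 with the largest change in each direction among calls whose mean log2 CPM reached 4, the same in 4 of 4 replicates for the KCl responses. Members, classes and lists were chosen with earlier results of these data known. No files were identical. Python 3.11.15 with matplotlib 3.10.9 drew the figures.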

Additional observations from a re-analysis of the deposited data

Results flagged for a closer look

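In 78 groups of 4 libraries, 5 had a library far from the other 3; chance alone gives about 1 in 20. In resting Pan pulldowns the share of uc009sgd.1 reached 59.8% in replicate 3. uc033jng.1 (123 nt) had a single highest library of 85500 CPM in resting Pan pulldowns and of 35700 CPM in resting Pan inputs. uc011wpu.1 had a single lowest library of 24.7 CPM in resting Pan pulldowns, and uc029six.1 a single highest library of 3170 CPM in dep Pan inputs.

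The named transcripts below were called in a test of the difference in KCl response between fractions or constructs, and the call of each was lost in 9 to 12 of 15 alternatives. Between Pan pulldowns and inputs the log2 difference was 1.256 for uc029six.1, -0.6143 for uc007qbd.1 and -0.4317 for uc007xok.1, and uc009ozx.3 (2104 nt), outside the rule for named transcripts here and not followed through the alternatives, was also called, at -0.4249. Between Pan and PSD95 pulldowns it was 0.9661 for uc008cal.1, 0.6906 for uc009ozx.3, -1.32 for uc008ewo.2 and -0.6296 for uc007pau.3 (11472 nt). The values of uc009ozx.3 were 1000, 1020, 887 and 1190 CPM in dep Pan pulldowns against 1040, 897, 758 and 1270 CPM in resting ones, and 674, 728, 689 and 902 CPM in dep PSD95 pulldowns against 1240, 866, 847 and 1500 CPM in resting ones. The cause was not tested.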

How the results depend on the processing

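The count of 2018 transcripts in the Pan pulldowns became 141 with edgeR (71 rose, 70 fell, all among the 2018), 1008 without the replicate block, 1 with the states of the descriptions, 963 after a lowess correction for length (608 rose, 355 fell), 684 with the 8 Pan pulldowns alone, and 13 to 1130 without 1 replicate. A fit of whole-number transcripts alone, an alternative chosen after seeing the data, called 1053 of only 3779 tested. In the main fit, 478 of 3687 whole-number transcripts were called. The input count of 867 became 83 with edgeR (45 rose, 38 fell), 1771 with DESeq2 (887 rose, 884 fell), 1396 without a filter, 59 without the replicate block, 1 with the descriptions, 515 after the length correction (441 rose, 74 fell) and 6 to 293 without 1 replicate, against 583 that rose and 284 that fell. The 5 pulldown to input differences became 1 with edgeR, 610 with DESeq2, 8 with RLE factors, 143 without a filter, 0 at a mean CPM of at least 5, 0 without the replicate block, 3 with the descriptions, 3 after the length correction and 0 to 4 without 1 replicate. The 7 Pan to PSD95 differences became 0 with edgeR, 765 with DESeq2, 33 with RLE factors, 0 without quality weights, 98 without a filter, 0 at a mean CPM of at least 5, 0 without the replicate block, 2 with the descriptions, 17 without the 3 most abundant transcripts, 0 after the length correction, 147 with all 32 libraries and 0 to 3 without 1 replicate. The difference of uc029six.1 reversed to -0.161 with RLE factors. For the length classes, the descriptions gave 0.0569 for 300 to 1000 nt and -0.0452 for 8000 nt or more, whole-number transcripts gave -0.277 for 8000 nt or more, and leaving out 1 replicate gave 0.33 to 0.505 and -0.205 to -0.138. The cause of these changes was not tested. With 4 pairs no sign-flip p can go below 0.125, and transcripts below a mean log2 CPM of 2 were called only at changes over 1.33.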
